A study of Homo sapiens with 6 samples.

Results

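The genes described here encode the motors that move along microtubules and the tubulins that build them: kinesins, kinesin light chains, subunits of cytoplasmic dynein and of dynactin, and alpha, beta and gamma tubulins with the proteins of the gamma tubulin ring complex. The rule that defines them reads only their symbols in the platform annotation. The choice gave 94 genes with 140 probes, out of 20037 genes with a probe. RNA was measured on 6 Illumina HumanHT-12 V4 arrays of 1 colour, 3 of PTTG1+/+ HCT116 cells (labelled WT) and 3 of PTTG1-/- HCT116 cells (labelled PTTGKO). HCT116 is an established line of human colorectal carcinoma. PTTG1 had been removed from its PTTG1-/- counterpart by homologous recombination. All cells were kept under standard culture conditions with no other treatment. There is 1 line of each genotype, and nothing says whether its 3 samples were grown separately. The p-values thus measure only how far these samples spread, which may be a technical spread. Because genotype and line coincide, loss of PTTG1 and any other change between the lines cannot be told apart.

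Securin, the product of PTTG1, keeps separase inactive until anaphase. Kinesins and dynein are motor proteins that use ATP to walk along microtubules, most kinesins toward the plus end and dynein toward the minus end. Mitotic kinesins build and shorten the spindle, move chromosomes and organise cytokinesis, and their transcripts are known to peak in G2 and mitosis of dividing cells. Transport kinesins and dynein with its activator dynactin carry organelles, vesicles and RNA throughout the cell cycle. Microtubules themselves are polymers of alpha and beta tubulin, of which human cells express several isotypes, and grow from ring complexes of gamma tubulin.

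The total intensity of an array lay between 14796418 and 16708425, and 35.7% to 37.3% of the 47310 probes were above background on an array (detection p under 0.05). Levels are log2 intensities after background correction and quantile normalization across the arrays. To be tested, a gene needed a probe above background on 3 arrays or more, and its brightest such probe stood for it. This left 10642 genes. Differences are given as PTTG1-/- minus PTTG1+/+, tested with limma and adjusted by the Benjamini-Hochberg method over these genes. At a probe of PTTG1 the level fell to background on all 3 PTTG1-/- arrays, at least 49.3-fold lower, while its other probe was 1.87-fold lower (adjusted p = 0.00156 with every kept probe tested by itself). Of 10 listed markers of colorectal epithelium 7 were above background on all 6 arrays, and CDX1, VIL1 and CLDN4 were above it on none. Of 8 fibroblast markers 7 were above background on no array, among them PDGFRB and DCN, whereas COL1A1 was above it on all. Of 7 blood cell markers with a probe, CD68 and HBA1 were above background on all 6 arrays, and PTPRC, CD3E and LYZ on none. The summed linear level of the 3 blood markers that were tested was 261.1 to 276.0 on PTTG1+/+ and 356.6 to 407.4 on PTTG1-/- arrays. Of these 3, CD68 and HBA1 rose in PTTG1-/- cells (adjusted p = 0.00192 and 0.0264) and CD14 did not pass. The summed level of the 7 epithelial markers was 15772.9 to 16264 and 15305.9 to 16112.2. EPCAM and CDH1 were lower in PTTG1-/- cells (adjusted p = 0.0339 and 0.00398), none rose, and 5 did not pass. Of the 7, 4 lay above 0, with a median log2 difference of 0.03. The part of these markers in the results below was not tested.

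Motor and tubulin genes changed little in PTTG1-/- cells as a whole, and in both directions. Of the 94 genes 63 were tested, with 6 that rose, 6 that fell and 51 that did not pass the test (adjusted p under 0.05). The share that passed, 19.0%, is near the 17.4% of all genes tested. Every change that passed was small, from 1.27-fold to 1.46-fold, and no member reached 1.5-fold. On the log2 scale these sizes were 0.34 to 0.55, and the median size over all genes that passed was 0.42. The genes that fell were the mitotic kinesins KIF18A, KIF15 and KIF23, the transport kinesin KIF1C, the centriolar kinesin KIF24 and the ring complex protein TUBGCP4. Those that rose were the kinesin light chain KLC2, the dynein subunit DYNLRB1, the dynactin subunit DCTN5, and the tubulins TUBB3, TUBB4A and TUBG2. In all 12 the PTTG1+/+ and PTTG1-/- arrays were fully apart, which held for 36.1% of all genes tested. The 12 were picked by a test on these same arrays, so this adds no separate evidence. Without PTTG1+/+ replicate 1, 2 members rose and 2 fell, and without PTTG1+/+ replicate 2 the counts were 3 and 3. Over all 10642 genes tested, 1847 passed with all arrays, and 1026 and 1009 passed without these arrays.

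**Figure D1:**
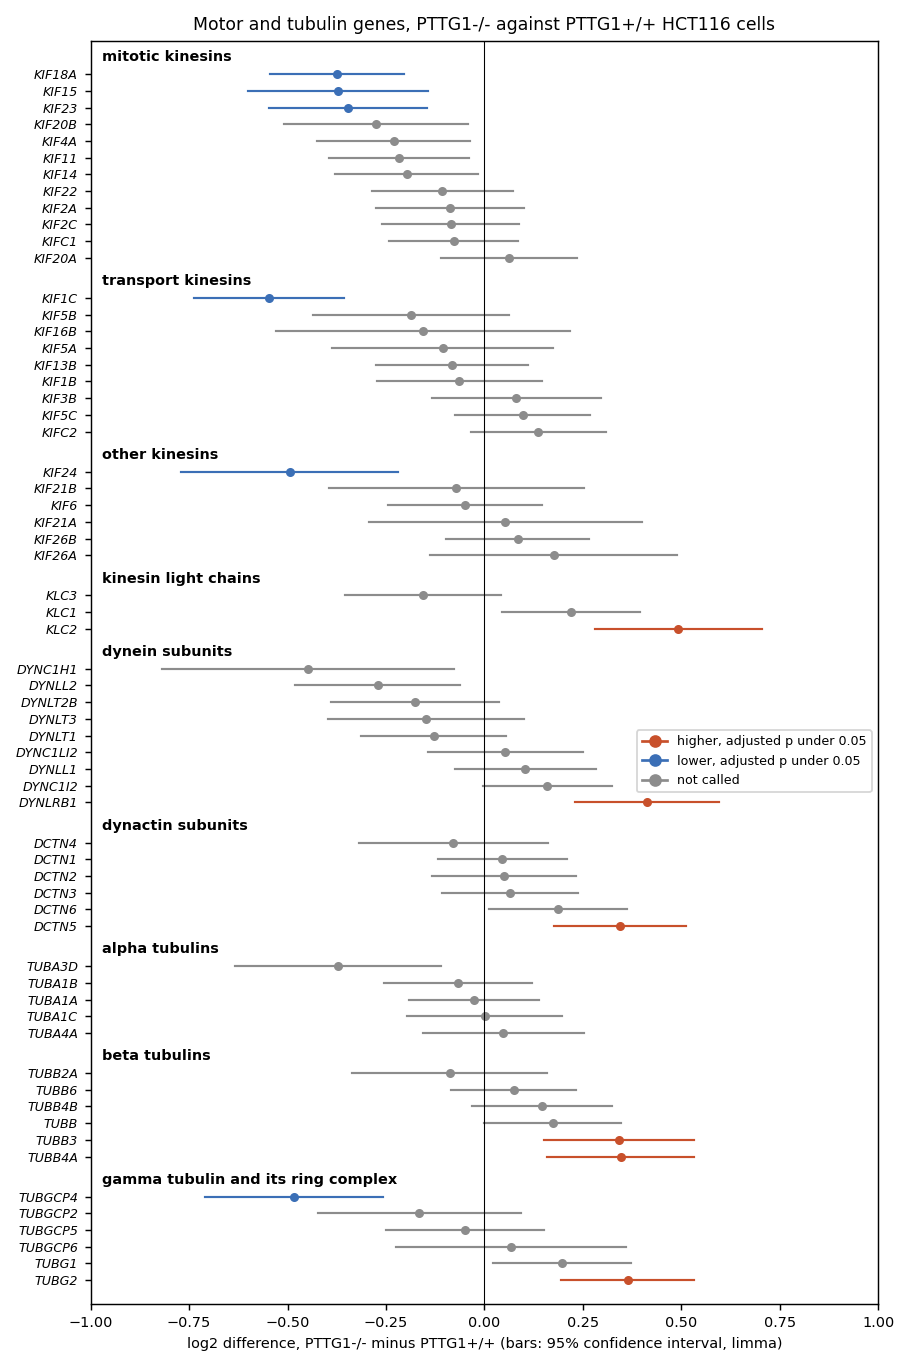
Log2 differences of the 62 tested members that belong to a class, as PTTG1-/- minus PTTG1+/+ (x axis), with bars for the 95% confidence interval from limma and 1 row for each gene, grouped by class. Of the 12 mitotic kinesins 11 lie left of 0, while tubulins and transport motors lie on both sides.

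Mitotic kinesins were lower in PTTG1-/- cells at 11 of 12 genes tested, with 3 that fell and none that rose. Their log2 differences had a median of -0.21, against 0.00 over all genes tested. In 8 of the 12 genes every PTTG1-/- array lay below every PTTG1+/+ array, which held for 16.7% of all genes tested, and 7.78% of all genes tested fell. KIF18A, which dampens the swaying of chromosomes at the spindle equator, had log2 levels of 7.75, 7.72 and 7.68 in PTTG1+/+ cells and 7.31, 7.29 and 7.43 in PTTG1-/- cells. Its 3 PTTG1-/- values lay well below the tight PTTG1+/+ group, and it fell by 0.37 on the log2 scale (SE 0.08, 1.30-fold, adjusted p = 0.0109). KIF15, a motor that can hold the spindle poles apart beside KIF11, had levels of 7.50, 7.56 and 7.54 in PTTG1+/+ cells and 7.32, 6.95 and 7.21 in PTTG1-/- cells. PTTG1-/- replicate 2 was the lowest, and the fall was 0.37 on the log2 scale (SE 0.10, 1.29-fold, adjusted p = 0.0348). KIF23, a subunit of centralspindlin that is required for cytokinesis, had levels of 8.86, 8.73 and 8.66 in PTTG1+/+ cells and 8.38, 8.31 and 8.52 in PTTG1-/- cells. Its groups came closer to each other, and it fell by 0.35 on the log2 scale (SE 0.09, 1.27-fold, adjusted p = 0.0285). A second, dimmer probe of KIF23 differed by -0.17 (adjusted p = 0.488 by itself), and the mean of both probes did not pass (-0.26, adjusted p = 0.145).

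These 3 calls were sensitive to the processing and to single arrays, and 1 mitotic kinesin passed without PTTG1+/+ replicate 1, PTTG1+/+ replicate 2 or PTTG1-/- replicate 2. With each array scaled to a common median none of the mitotic kinesins passed (KIF18A adjusted p = 0.0802, KIF15 adjusted p = 0.0830, KIF23 adjusted p = 0.143), nor did any without normalization between arrays, although the differences stayed below 0 in every setting tried. Over all genes tested, the number that passed also dropped, from 1847 to 1140 and 1044 in these 2 settings. KIF15 also lost its call without PTTG1+/+ replicate 1, 2 or 3 (adjusted p = 0.0824, 0.109 and 0.0880) and without PTTG1-/- replicate 2 (adjusted p = 0.0954), and KIF23 without PTTG1+/+ replicate 1 or 2 (adjusted p = 0.10 and 0.0819) and PTTG1-/- replicate 1 or 2 (adjusted p = 0.0765 and 0.0993).

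The 9 other mitotic kinesins did not pass the test. KIF11, the motor that slides the poles apart to form a bipolar spindle, had levels of 8.61, 8.56 and 8.50 in PTTG1+/+ cells and 8.25, 8.36 and 8.40 in PTTG1-/- cells. The groups did not overlap, but the log2 difference of -0.22 (SE 0.08) had an adjusted p = 0.0906. Its second probe gave -0.31 (adjusted p = 0.0823 with every kept probe tested by itself). KIF4A, a chromokinesin that shapes the central spindle, had levels of 7.92, 7.97 and 8.12 against 7.68, 7.79 and 7.84. This difference of -0.23 (SE 0.09) also missed the threshold (adjusted p = 0.0992), and whether its probe also reads the near-identical KIF4B was not tested. KIF20B and KIF14, both needed for cytokinesis, had log2 differences of -0.27 and -0.20 with groups that did not overlap (adjusted p = 0.101 and 0.127). The remaining 5 lay closer to 0. KIFC1, a minus-end motor that clusters spindle poles and had the brightest probe of its class, had levels of 10.45, 10.35 and 10.39 against 10.28, 10.33 and 10.33, a difference of -0.08 (95% confidence interval -0.24 to 0.09). The microtubule depolymerases KIF2A and KIF2C had differences of -0.09 each, and the chromokinesin KIF22 one of -0.11. KIF20A, a motor of the central spindle, was the only mitotic kinesin with a difference above 0 (0.06, 95% confidence interval -0.11 to 0.24). Averaged over the 12 genes, each centred on its own mean over the arrays, the level was 0.10, 0.09 and 0.09 above that mean in PTTG1+/+ replicates 1 to 3, and -0.10, -0.12 and -0.08 in the PTTG1-/- replicates.

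**Figure D2:**
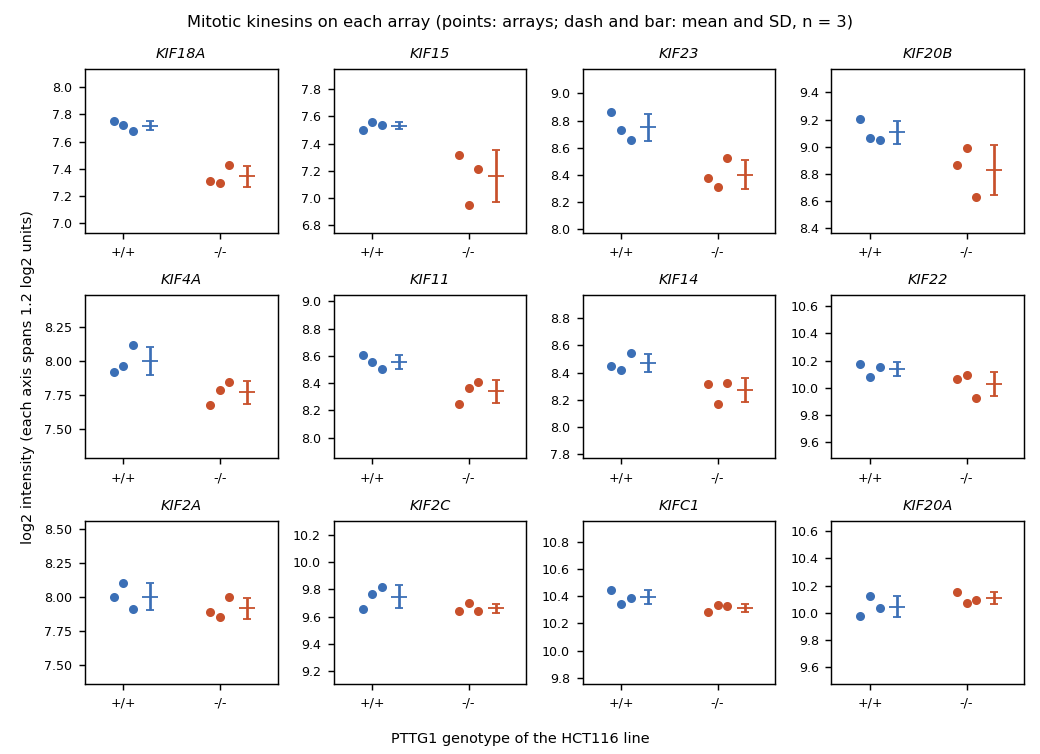
Log2 intensity (y axis, each panel spanning 1.2 log2 units) of the 12 tested mitotic kinesins in PTTG1+/+ and PTTG1-/- cells, with 1 point for each array and a dash and bar for the mean and SD (n = 3). The arrays do not overlap in KIF18A, KIF15, KIF23, KIF20B, KIF4A, KIF11, KIF14 and KIFC1, and overlap in the other 4.

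Many genes of G2 and mitosis carry in their promoter a cell cycle genes homology region (CHR), often beside a CCAAT box, and the CHR is bound by repressor and activator complexes that time their expression. The promoters of mitotic kinesins were therefore searched for the CHR letters TTTGAA and for CCAAT, on both strands, in RefSeq windows of 250 bases before to 50 after the start (GRCh38.p14). Windows were at hand for 79 of the 94 genes. The CHR letters stood in 8 of the 12 tested mitotic kinesins (66.7%), and in 9 of 14 with the untested ones (64.3%). Counted likewise with untested genes, they stood in 1 of 31 transport motors with a window (3.23%) and in 2 of 21 tubulin genes (9.52%). They stood in 15.2% of all 35116 promoters, whether or not the gene was tested here. Among tested genes that are not members, 838 held them and 7722 did not. Both motifs stood together in 7 of the 12 tested mitotic kinesins and in 5.9% of all promoters. The 100 bases before the start are shown for the 3 mitotic kinesins that fell, for KIF4A and KIF11, for KIF20A as the mitotic kinesin with the highest difference, and for KIF1C as the transport kinesin that fell, with both motifs in capitals (TTCAAA and ATTGG are their reverse complements).
KIF18A: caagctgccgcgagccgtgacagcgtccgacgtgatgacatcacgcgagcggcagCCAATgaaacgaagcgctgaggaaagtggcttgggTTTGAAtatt
KIF15: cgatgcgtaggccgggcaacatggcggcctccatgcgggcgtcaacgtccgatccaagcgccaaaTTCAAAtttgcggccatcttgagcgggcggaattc
KIF23: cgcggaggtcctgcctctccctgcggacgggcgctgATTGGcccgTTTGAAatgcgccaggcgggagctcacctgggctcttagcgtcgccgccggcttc
KIF4A: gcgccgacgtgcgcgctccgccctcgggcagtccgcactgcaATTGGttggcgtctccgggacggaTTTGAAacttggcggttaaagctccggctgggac
KIF11: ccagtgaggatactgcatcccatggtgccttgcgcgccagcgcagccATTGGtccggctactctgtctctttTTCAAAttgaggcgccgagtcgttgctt
KIF20A: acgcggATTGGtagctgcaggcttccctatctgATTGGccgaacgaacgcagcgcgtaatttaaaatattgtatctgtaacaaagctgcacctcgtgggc
KIF1C: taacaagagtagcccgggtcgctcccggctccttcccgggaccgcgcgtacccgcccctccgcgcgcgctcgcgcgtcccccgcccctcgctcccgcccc

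The stretches lie at chr11:28108157-28108256 on the minus strand for KIF18A, and on the plus strand at chr3:44761694-44761793 for KIF15, chr15:69414249-69414348 for KIF23, chrX:70290004-70290103 for KIF4A, chr10:92593030-92593129 for KIF11, chr5:138179012-138179111 for KIF20A and chr17:4997850-4997949 for KIF1C. In KIF18A, KIF23, KIF4A and KIF11 a CCAAT box stands upstream of the CHR letters, in KIF15 the CHR letters stand without one, and in the KIF20A stretch 2 CCAAT boxes stand without the letters TTTGAA. The stretch of KIF1C holds neither motif. In KIF20B, KIF14 and KIFC1, not shown, the CHR letters stand only after the start, where such a stretch does not reach. KIFC1 has the letters and differed by -0.08. The 8 tested mitotic kinesins with the CHR letters had a median log2 difference of -0.25, from -0.37 to -0.08, and all 8 were below 0. The 4 without them (KIF2A, KIF2C, KIF20A and KIF22) had a median of -0.09, from -0.11 to 0.06. Of these 3 were below 0, and none passed the test. In a list of other spindle and G2/M genes, described below, 21 of 23 with the letters were below 0 (91.3%). So were 12 of 13 without them (92.3%), and the medians were -0.16 and -0.11. Only the letters TTTGAA were searched for, so a promoter without them, such as that of KIF20A, may hold a CHR with other letters. A match is no proof of a binding site, the search was made after the differences were known, and no test was run on it.

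**Figure D3:**
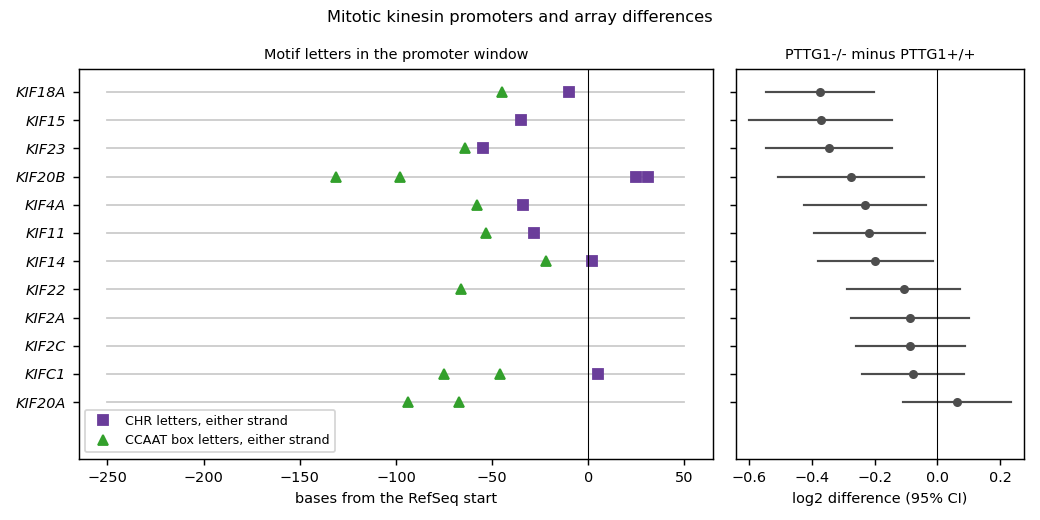
Left, positions of the CHR letters (squares) and CCAAT boxes (triangles) on either strand in the promoter windows of the 12 tested mitotic kinesins, in bases from the RefSeq start (x axis). Right, the log2 difference of each gene with its 95% confidence interval, where KIF2A, KIF2C, KIF20A and KIF22, which lack the CHR letters, lie between -0.11 and 0.06.

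Beside the mitotic kinesins, a list of 47 other genes of the spindle and of G2 and mitosis was taken, outside the symbols that define the set. Of 44 tested 7 fell (15.9%, against 7.78% of all genes tested), none rose and 37 did not pass, while 39 had a difference below 0, with a median of -0.15. CCNB1, the mitotic cyclin, fell by 0.46 (SE 0.08, adjusted p = 0.00429), HMMR, a spindle assembly factor, by 0.53 (SE 0.09, adjusted p = 0.00614) and CENPA, the centromeric histone, by 0.45 (SE 0.08, adjusted p = 0.00690), all on the log2 scale. They had the lowest adjusted p of the list. The 5 genes above 0 were CDC20, TPX2, UBE2C, ANLN and HAUS7, with differences of 0.02 to 0.09. CCNB2 and AURKB differed by -0.08 and -0.03 (adjusted p = 0.496 and 0.850). In bulk RNA, fewer cells in G2 and mitosis and less RNA per such cell cannot be told apart. CENPE, a mitotic kinesin whose symbol lies outside the rule, had a log2 difference of -0.23 (adjusted p = 0.0704), with arrays that did not overlap.

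Transport motors showed no common direction. Among the 27 tested transport kinesins, kinesin light chains, dynein and dynactin subunits, 3 rose, 1 fell and 23 did not pass the test. Their median log2 difference was 0.05, and 14 lay above 0 and 13 below. The median changed sign without PTTG1+/+ replicate 1 (-0.01) or PTTG1-/- replicate 1 (-0.02).

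Of the 9 transport kinesins tested, KIF1C alone passed (11.1%, against 17.4% of all genes tested). KIF1C, which carries secretory vesicles and integrins, had levels of 6.38, 6.50 and 6.50 in PTTG1+/+ cells and 5.91, 5.81 and 6.02 in PTTG1-/- cells. The gap between the lines exceeded the spread within either, and KIF1C fell by 0.55 on the log2 scale (SE 0.08, 1.46-fold, adjusted p = 0.00307). Its call held in each of the 17 alternatives run (adjusted p from 0.00222 to 0.0315), but the difference was smaller without background correction (-0.35) and with the authors' processed values (-0.36). KIF5B, the ubiquitous heavy chain of conventional kinesin, had levels of 8.29, 8.16 and 8.05 against 7.86, 7.88 and 8.20, where PTTG1-/- replicate 3 fell among the PTTG1+/+ values (difference -0.19, adjusted p = 0.287). KIF1B, which carries mitochondria and synaptic vesicle precursors and had the brightest probe of this class, differed by -0.06 (95% confidence interval -0.27 to 0.15), and its dimmer probe by 0.15 (adjusted p = 0.611 by itself). The 6 others differed by -0.16 to 0.14.

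KIF24, a depolymerase that acts at centrioles and restrains cilium formation, fell by 0.49 on the log2 scale (SE 0.12, 1.41-fold, adjusted p = 0.0241). Its levels were 6.09, 6.13 and 5.98 in PTTG1+/+ cells and 5.75, 5.28 and 5.68 in PTTG1-/- cells, so PTTG1-/- replicate 2 came near the lowest level called above background on that array, 5.19. KIF24 lost its call without PTTG1+/+ replicate 1 or 2 (adjusted p = 0.0769 and 0.0848), and its difference was -0.28 without background correction and -0.30 with the authors' processed values. KIF21A, which restrains microtubule growth at the cell cortex, had the brightest probe among the kinesins of neither group. Its levels of 8.85, 8.78 and 8.27 against 8.50, 8.75 and 8.82 overlapped (difference 0.05, 95% confidence interval -0.29 to 0.40). The light chains bind conventional kinesin to its cargo. KLC2 had levels of 5.91, 6.04 and 5.83 in PTTG1+/+ cells and 6.52, 6.46 and 6.27 in PTTG1-/- cells, and rose 1.41-fold (log2 difference 0.49, SE 0.09, adjusted p = 0.00808). KLC1 had levels of 8.33, 8.28 and 8.39 against 8.47, 8.56 and 8.62 with no overlap, but did not pass (difference 0.22, SE 0.08, adjusted p = 0.0839), and its other probe gave a difference of 0.00 (adjusted p = 0.979 by itself), so that the mean of both was 0.11. KLC3 differed by -0.15 (adjusted p = 0.266). KLC2 kept its call in all alternatives other than the methods' t-test (adjusted p = 0.0616), with a smaller difference of 0.31 without background correction and 0.32 with the authors' processed values.

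Within cytoplasmic dynein, a light chain rose while the heavy chain was lower without passing the test. DYNLRB1, a roadblock light chain that binds the intermediate chain, had levels of 10.09, 10.01 and 10.03 in PTTG1+/+ cells and 10.44, 10.57 and 10.37 in PTTG1-/- cells, and rose 1.33-fold (log2 difference 0.41, SE 0.08, adjusted p = 0.00908). Of its 4 probes, each tested by itself, 3 rose, with log2 differences of 0.41, 0.46 and 0.51 (adjusted p = 0.0146, 0.0292 and 0.00465), and the fourth did not pass (0.15, adjusted p = 0.291). The call of DYNLRB1 held in each of the 17 alternatives run (adjusted p from 8.18e-04 to 0.0439). DYNC1H1, the heavy chain that holds the motor, had levels of 10.17, 9.89 and 9.87 in PTTG1+/+ cells and 9.71, 9.75 and 9.12 in PTTG1-/- cells. The groups did not overlap, but PTTG1-/- replicate 3 stood far below the other arrays, and the difference of -0.45 (SE 0.16) had an adjusted p = 0.0937. Without that array it was -0.25 (adjusted p = 0.144). DYNLL2, a light chain that also binds many proteins outside dynein, had levels of 9.38, 9.43 and 9.56 against 9.14, 9.33 and 9.08 (difference -0.27, SE 0.09, adjusted p = 0.0755). Both passed with the authors' processed values (DYNC1H1 adjusted p = 0.0380, DYNLL2 adjusted p = 0.0335). DYNLL1, the near paralog of DYNLL2 with the brightest probe of the class, differed by 0.10 (95% confidence interval -0.07 to 0.28). The intermediate chain DYNC1I2, the light intermediate chain DYNC1LI2 and the light chains DYNLT1, DYNLT3 and DYNLT2B differed by -0.18 to 0.16, and the second probe of DYNLT2B by 0.05, opposite in sign to the first.

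All 6 dynactin subunits were tested, of which 5 were above 0 and 1 passed (16.7%, against 17.4% of all genes tested). DCTN5, a subunit of the complex at the pointed end of the dynactin filament, had levels of 9.27, 9.25 and 9.36 in PTTG1+/+ cells and 9.68, 9.64 and 9.59 in PTTG1-/- cells, and rose 1.27-fold (log2 difference 0.34, SE 0.07, adjusted p = 0.0143). The call was lost without PTTG1+/+ replicate 1 or 2 (adjusted p = 0.0530 and 0.0657). DCTN6, its partner at the pointed end, had levels of 9.43, 9.41 and 9.54 against 9.65, 9.59 and 9.71, with no overlap (difference 0.19, adjusted p = 0.134). A dim second probe of DCTN6 differed by -0.02. DCTN1, which binds microtubules and dynein, and DCTN2, which anchors it to the filament and had the brightest probe of the class, differed by 0.05 each (95% confidence intervals -0.12 to 0.21 and -0.13 to 0.23).

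No alpha tubulin passed, 2 of 6 beta tubulins rose, and 1 of 2 gamma tubulins rose. Over the 13 tubulin genes tested, 3 rose and none fell, where 9.58% of all genes tested rose, and the median log2 difference was 0.07. The abundant alpha tubulins TUBA1A, TUBA1B and TUBA1C differed by -0.03, -0.07 and 0.00. TUBA1A, which had the brightest probe of its class, had levels of 14.14, 14.24 and 14.20 against 14.18, 14.13 and 14.19 (95% confidence interval of the difference -0.19 to 0.14). A second probe of TUBA1C differed by -0.13. TUBA3D had levels of 7.68, 7.41 and 7.20 in PTTG1+/+ cells and 7.09, 7.02 and 7.04 in PTTG1-/- cells. The PTTG1+/+ arrays were widely spread and all above the PTTG1-/- arrays, and the difference of -0.37 (SE 0.12) had an adjusted p = 0.0563, which passed without PTTG1+/+ replicate 3 (-0.49, adjusted p = 0.0234), whereas without PTTG1+/+ replicate 1 the difference was -0.25 (adjusted p = 0.148). TUBA3D passed as lower in 5 of the 17 alternatives, among them the authors' processed values (-0.30, adjusted p = 0.0300). Alpha tubulin genes are close copies of each other, as are TUBB2A and TUBB2B, and probe sequences were not used, so reads of more than 1 copy by a probe were not tested. This holds as well for the pseudogene TUBA3FP, whose probe was bright (12.38, 12.56 and 12.58 against 12.65, 12.54 and 12.16) and differed by -0.06.

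Among the beta tubulins, 5 of 6 were above 0, and in all 5 every PTTG1-/- array lay above every PTTG1+/+ array, which held for 19.5% of all genes tested. TUBB3, an isotype best known from neurons and also found in carcinomas, had levels of 10.84, 10.91 and 10.95 in PTTG1+/+ cells and 11.34, 11.27 and 11.12 in PTTG1-/- cells, and rose 1.27-fold (log2 difference 0.34, SE 0.08, adjusted p = 0.0241). TUBB4A, another isotype of brain, had levels of 8.36, 8.44 and 8.21 against 8.68, 8.70 and 8.68, so its PTTG1-/- arrays lay close together. It also rose 1.27-fold (log2 difference 0.35, SE 0.08, adjusted p = 0.0208). TUBB, the isotype of all dividing cells, had levels of 12.70, 12.66 and 12.71 against 12.84, 12.80 and 12.96 with no overlap, but did not pass (difference 0.17, 95% confidence interval -0.000351 to 0.35, adjusted p = 0.159). TUBB4B and TUBB6 differed by 0.15 and 0.07, and TUBB2A by -0.09. No tubulin gene passed without PTTG1+/+ replicate 1, and 1 passed without PTTG1+/+ replicate 2, PTTG1-/- replicate 1 or PTTG1-/- replicate 2. Of all genes tested 1026 passed without PTTG1+/+ replicate 1, against 1847 with all arrays. When arrays were left out, TUBB3 failed the test without replicate 1 or 2 of either line (adjusted p = 0.0843, 0.0771, 0.0773 and 0.0776), and TUBB4A without replicate 1 or 3 of PTTG1+/+ or replicate 1 or 2 of PTTG1-/- cells (adjusted p = 0.0588, 0.0720, 0.0533 and 0.0666) and with median scaling (adjusted p = 0.0580).

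Gamma tubulin nucleates microtubules, and the proteins of its ring complex hold it in place. TUBG2, the less widely expressed copy, had levels of 7.82, 7.87 and 7.95 in PTTG1+/+ cells and 8.24, 8.29 and 8.19 in PTTG1-/- cells, and rose 1.29-fold (log2 difference 0.36, SE 0.08, adjusted p = 0.0121). TUBG1, the main copy, had levels of 10.98, 11.13 and 11.09 against 11.21, 11.28 and 11.30 (difference 0.20, adjusted p = 0.114), with no overlap. Its other 3 kept probes gave 0.20, 0.06 and -0.04, none past the test. Of 4 ring complex proteins tested TUBGCP4 fell and none rose (25% past the test, against 17.4% of all genes tested). TUBGCP4 had levels of 7.66, 7.37 and 7.65 in PTTG1+/+ cells and 7.03, 7.01 and 7.19 in PTTG1-/- cells, a fall of 0.48 on the log2 scale (SE 0.10, 1.40-fold, adjusted p = 0.0121). TUBGCP2, TUBGCP5 and TUBGCP6 differed by -0.17, -0.05 and 0.07. TUBG2 just lost its call without PTTG1+/+ replicate 1 or 2 (adjusted p = 0.0505 and 0.0512), and TUBGCP4 without PTTG1+/+ replicate 1 (adjusted p = 0.0513).

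**Figure D4:**
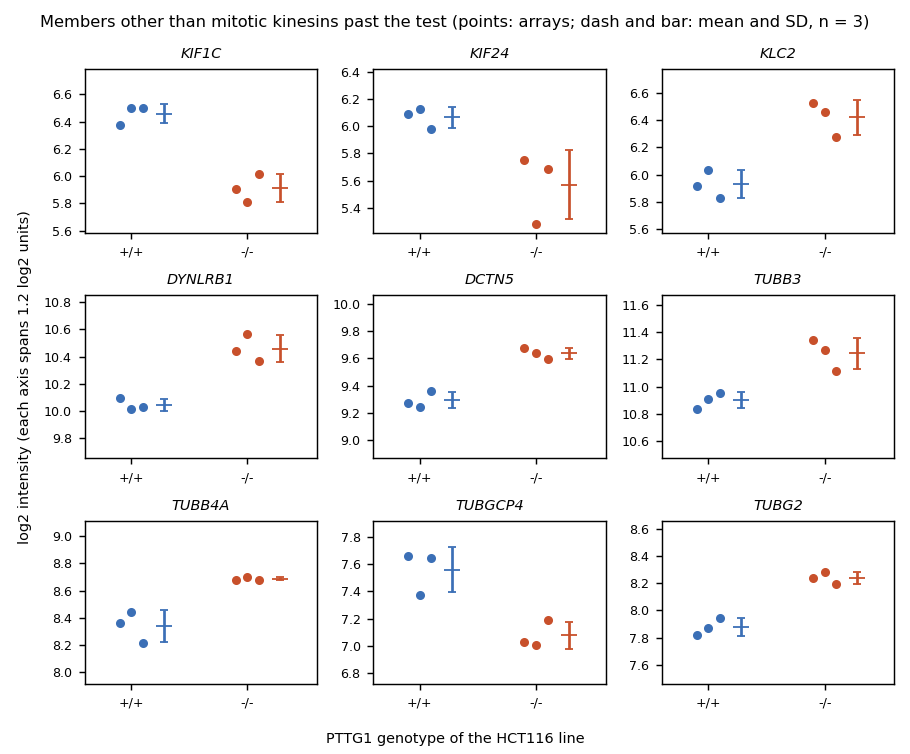
Log2 intensity (y axis, each panel spanning 1.2 log2 units) of the 9 members other than mitotic kinesins that passed the test, in PTTG1+/+ and PTTG1-/- cells, with 1 point for each array and a dash and bar for the mean and SD (n = 3). In all 9 panels the arrays of the lines do not overlap, which held for 36.1% of all genes tested. KIF1C, KIF24 and TUBGCP4 are lower and the other 6 higher in PTTG1-/- cells.

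Partners of the motors and of tubulin that lie outside the set were taken from a list of 36, of which 34 were tested. None rose and 4 fell (11.8%), where 9.58% of all genes tested rose and 7.78% fell, and the median log2 difference was -0.01. In 9 of the 34 every PTTG1-/- array lay below every PTTG1+/+ array, which held for 16.7% of all genes tested. In 2 every PTTG1-/- array lay above, which held for 19.5%. TUBD1, delta tubulin of the centriole, fell by 0.54 (SE 0.08, adjusted p = 0.00270). NDE1, which binds dynein and LIS1, fell by 0.41 (SE 0.09, adjusted p = 0.0178), and SPDL1, which recruits dynein to kinetochores, by 0.45 (SE 0.11, adjusted p = 0.0237). MAP7, which recruits conventional kinesin to microtubules, fell by 0.31 (SE 0.07, adjusted p = 0.0200), all on the log2 scale.

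Set side by side, 25.0% of mitotic kinesins, 14.8% of transport motors and 23.1% of tubulin genes passed the test, against 17.4% of all genes tested, and their median log2 differences were -0.21, 0.05 and 0.07. The mitotic kinesins that passed all fell, the tubulin genes that passed all rose, and the transport motors did both. TUBA3D was lower and just missed the test (adjusted p = 0.0563). The differences between these classes were not tested. For any single gene, 3 arrays against 3 allow no p under 0.1 in an exact permutation test, two-sided, which is the p of each of the 30 members (47.6%) whose arrays did not overlap, where 36.1% of all genes tested did not overlap.

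**Figure D5:**
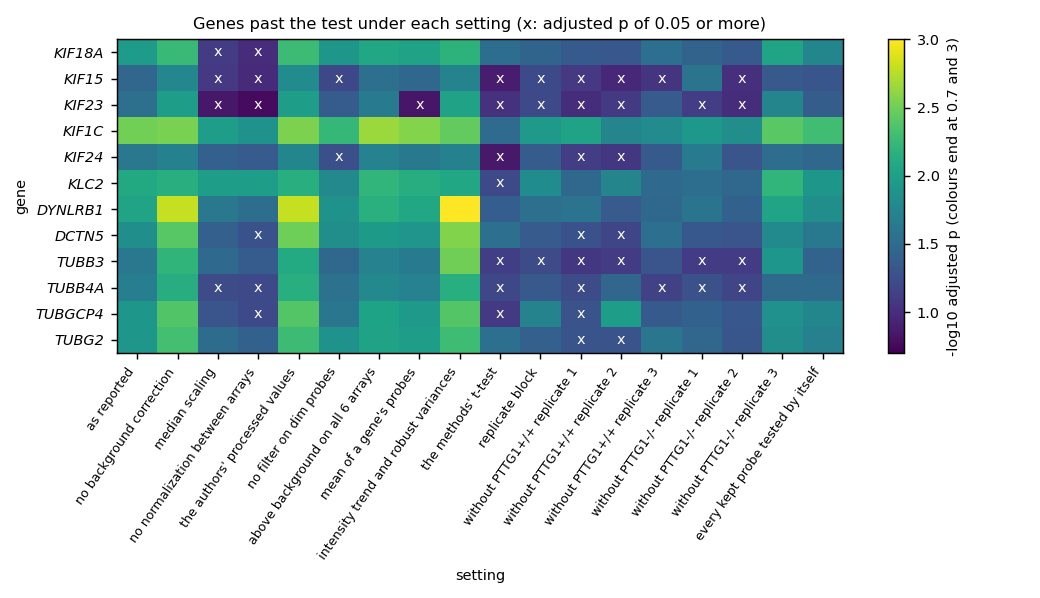
Adjusted p (colour, as -log10) of the 12 members that passed the test (rows) as reported and under each alternative (columns), with a cross where it was 0.05 or more. KIF1C and DYNLRB1 have no cross, KLC2 has 1, and KIF15 and KIF23 have 9 each.

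The other 31 members were not above background on enough arrays to be tested. Among the mitotic kinesins these were KIF2B and KIF4B. They also included KIF1A, KIF3A, KIF3C, KIF13A, KIF17 and KIFC3 of the transport kinesins, the dynein subunits DYNC1I1 and DYNC1LI1, the light chain KLC4 and the beta tubulins TUBB1, TUBB2B and TUBB8. Of the genes named here none was above background on any array, so their RNA was not detectable at the signal of these probes, which does not show that it was absent.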

How the data were processed

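Total RNA of 3 PTTG1+/+ and 3 PTTG1-/- HCT116 samples was labelled with biotin and hybridised to Illumina HumanHT-12 V4 arrays. The authors followed the manufacturer for the raw data and used Partek after that, and name neither the scanner's software nor a normalization. They deposited unnormalized linear intensities, beside a detection fraction that rises with intensity. Its complement to 1 served as detection p. The log2 values that the authors processed and deposited have a median of 6.07 on every array and rank the probes of an array as its intensities do, and served as an alternative.

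Of the intensities, 12 lines without a probe name were left out. In R 4.3.3, limma 3.58.1 (neqc, offset 16) corrected the background and normalized by quantiles, and lmFit and eBayes gave the tests, which were tested on simulated data. There they found 13 of 50 genes changed by 0.3 on the log2 scale and 35 of 50 changed by 0.6. A gene that did not pass may thus have changed by such a size. Probes above background on at least 3 arrays were kept (17357). The platform annotation names 30107 probes with 1 gene and 8 with several, and 17195 are unnamed here. Symbols were updated through the RefSeq gene table of GRCh38.p14, which also gave the promoter windows. The number of arrays limits the precision.

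The members and lists were chosen with earlier results of these data known. Named are members past the test or with an adjusted p under 0.10, those with the brightest probe of a class, and those whose probes differ in sign or call. Other members appear by range or were named after their values were seen. KIF18B was not analysed here.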

Additional observations from a re-analysis of the deposited data

How the results depend on the processing

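No named gene that passed the test changed its direction in any of the 17 alternatives, and KIF1C and DYNLRB1 kept their calls in all of them. With median scaling 3 members were lower and none of the 12 mitotic kinesins passed (0 called), and the median of tubulin genes was 0.10. Without normalization between arrays 2 members were lower, 0 mitotic kinesins passed and the median of tubulin genes was 0.11. With no filter on dim probes the medians were -0.15 for mitotic kinesins and 0.038 for tubulin genes, and with the mean of a gene's probes that of tubulin genes was 0.11. With an intensity trend and robust variances 10 members were lower and 5 tubulin genes passed, among them TUBA3D as lower (adjusted p = 0.0303). With the methods' t-test 13 members were higher and 10 lower before adjustment (p under 0.05), and after it 3 members were higher and 2 lower, 1 mitotic kinesin and 1 tubulin gene passed, and 931 of all genes tested passed against 1847 with limma. All genes called numbered 1140 with median scaling and 1044 without normalization. The cause of these shifts was not tested. Leaving out 1 array at a time gave 2 to 6 members higher, 2 to 7 lower, 1 to 3 mitotic kinesins, 3 to 5 transport motors and 0 to 3 tubulin genes past the test, and medians of -0.22 to -0.17, -0.024 to 0.042 and 0.059 to 0.11. Tubulin genes passed in no case without PTTG1+/+ replicate 1. Same-numbered arrays did not deviate together (r of -0.0737, -0.00404 and -0.115 over genes). With 3 arrays of each line this cannot show whether same-numbered samples were handled together. With the replicate number as a block 1 mitotic kinesin passed, and KIF15, KIF23 and TUBB3 lost their calls (adjusted p = 0.0601, 0.0621 and 0.0601).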

Other observations

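The CHR letters were also counted in the promoter windows of all tested genes that are not motor or tubulin genes. Of 838 such genes with the letters 8.47% fell and 7.28% rose in PTTG1-/- cells, with a median log2 difference of -0.04, and of 7722 without them 7.42% fell and 9.61% rose, with a median of 0.00. Among the listed spindle and G2/M genes, 23 with the letters had a median of -0.16 and 5 fell, and 13 without them had a median of -0.11 and 1 fell. Below 0 were 21 of the 23 with the letters (91.3%) and 12 of the 13 without them (92.3%). These counts were made after the results were seen and were not tested.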
